A study of Mus musculus with 16 samples.

Results

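DNA methylation was described here at the Zfp genes of mouse chromosomes 7, 13 and 17. The genes are the protein-coding genes of the GENCODE M21 annotation (build mm10) on these chromosomes whose symbol is Zfp followed by digits alone. They number 161 of the 18854 protein-coding genes on the 16 chromosomes of the deposited table, with 89 on chromosome 7, 31 on chromosome 13 and 41 on chromosome 17, and a further 180 Zfp genes lie on its other chromosomes. Of the 161, 124 lay within 100000 bp of the start of another of them and 37 stood alone. The C2H2 zinc finger pattern was found in the translated coding sequence of 159 of them, with a median of 12 fingers and at most 33, and in 139 all fingers were encoded by the last exon. Both genes without the pattern, Zfp935 and Zfp36, were kept because the choice was made by symbol. Zfp36 encodes tristetraprolin, whose CCCH fingers bind AU-rich elements of messenger RNA and which is no transcription factor of the C2H2 kind.

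The cells were immortalised mouse embryonic fibroblasts (MEFs) of strain C57BL/6J from embryos of day 13.5, with no other genotype and no treatment in the labels. There were 2 parental lines, MEF-1 and MEF-2, each from 1 embryo and each taken through crisis by serial passage, and 7 clonal lines from each parental line, every clonal line being the offspring of 1 cell sorted by flow cytometry. The word family stands here for a parental line and the clonal lines grown from it. The families are thus a pair of embryos, which differ in sex according to the study's methods, and embryo, sex and culture cannot be told apart. Target capture bisulfite sequencing (tcBS-seq) enriches chosen regions with RNA probes before conversion, so CpGs outside the probes are mostly unread. Of 8 fibroblast markers only the promoter of Vim could be read, at 1.6% in MEF-1 and 1.5% in MEF-2, and of 6 markers of other cell types Cdh1 (31.7% and 18.2%) and Pecam1 (82.1% and 67.1%). Promoter levels are not expression, so cell identity was not checked further.

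Genes of this kind form the largest group of sequence-specific DNA-binding proteins in mammals. Many carry a KRAB domain in front of an array of fingers, and through it bind TRIM28 (KAP1), which brings in the histone methyltransferase SETDB1, HP1 proteins and DNA methylation to silence transposable elements and imprinted loci. They arose by tandem duplication, lie in clusters, and their arrays are usually encoded by a single long 3′ exon, while the promoter often lies in a CpG-rich stretch. ZFP57 guards imprinted methylation in the early embryo and ZFP568 represses a placental transcript of Igf2.

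The methylation level is the percentage of reads called methylated at the CpGs of a region in a library. A promoter is the 1000 bp before the gene start, and the last exon is that of 1 coding transcript per gene. A region needed 3 CpGs, each with at least 10 reads in all 16 libraries. With this requirement 128 of the 161 promoters and 20 of the 161 last exons were measured, and 14 genes had both. The capture was uneven, since 46.2% of the 3588 reference CpGs in the promoters were in the table but 5.96% of the 6225 in the last exons. The last exons described below are thus a small sample, 19 from chromosome 7 and 1 (Zfp13) from chromosome 17.

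Libraries held 59243669 to 90633091 CpG calls, with a median coverage of 26 to 39 reads per CpG of the table. The relative coverage of a chromosome is its mean coverage divided by the median over the chromosomes of the same library. It was then scaled so that the median MEF-2 clonal line is at 1. On chromosome 7 that of MEF-1 clonal lines 1, 3 and 7 was 0.816 to 0.841 and that of line 6 was 0.899, against 0.969 to 1.02 in the MEF-2 clonal lines. MEF-1 clonal line 1 also had 1.16 on chromosome 13 and 0.840 on chromosome 17. MEF-1 clonal lines 1, 4 and 5 were closer to each other than other pairs, with a variance of the differences at the Zfp CpGs of 1.82 to 1.94 times that of read sampling against 2.17 to 4.02 in all other pairs.

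The stretches below show where in the sequence the main results lie. Each is read 5′ to 3′ on the strand of the gene from mm10, and the capitals mark the CpGs that were measured. The first 5 lie before the gene start and carry the differences between the families.

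Zfp808, chr13:62129390-62129689, plus strand: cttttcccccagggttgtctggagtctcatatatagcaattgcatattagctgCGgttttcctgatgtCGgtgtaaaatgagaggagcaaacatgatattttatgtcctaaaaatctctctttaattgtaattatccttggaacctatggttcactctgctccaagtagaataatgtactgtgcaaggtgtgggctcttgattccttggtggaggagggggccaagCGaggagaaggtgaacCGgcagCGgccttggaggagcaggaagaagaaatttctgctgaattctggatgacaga

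Zfp626, chr7:27806840-27807119, plus strand: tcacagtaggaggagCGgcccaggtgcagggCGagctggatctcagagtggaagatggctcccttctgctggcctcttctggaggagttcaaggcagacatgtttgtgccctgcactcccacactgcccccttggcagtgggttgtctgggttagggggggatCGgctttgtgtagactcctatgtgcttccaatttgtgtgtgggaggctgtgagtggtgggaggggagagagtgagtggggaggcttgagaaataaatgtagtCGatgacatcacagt

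Zfp429, chr13:67399820-67400019, minus strand: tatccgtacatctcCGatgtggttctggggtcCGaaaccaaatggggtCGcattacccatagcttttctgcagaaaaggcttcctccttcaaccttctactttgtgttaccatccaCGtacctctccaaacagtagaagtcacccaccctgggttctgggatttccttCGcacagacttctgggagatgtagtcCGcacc

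Zfp768, chr7:127346342-127346581, minus strand: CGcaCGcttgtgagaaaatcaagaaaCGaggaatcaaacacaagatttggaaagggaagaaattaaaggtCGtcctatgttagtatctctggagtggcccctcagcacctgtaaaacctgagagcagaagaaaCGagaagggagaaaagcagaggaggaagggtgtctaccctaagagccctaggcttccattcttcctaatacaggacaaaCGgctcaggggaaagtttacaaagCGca

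Zfp36, chr7:28380448-28380747, minus strand: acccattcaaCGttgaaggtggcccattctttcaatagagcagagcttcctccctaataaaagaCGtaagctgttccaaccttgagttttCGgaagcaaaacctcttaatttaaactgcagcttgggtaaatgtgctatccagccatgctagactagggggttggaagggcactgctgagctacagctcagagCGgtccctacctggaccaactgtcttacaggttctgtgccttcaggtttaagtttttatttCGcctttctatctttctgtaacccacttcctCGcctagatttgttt

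The stretch of Zfp429 lies within the antisense gene Gm48900 and that of Zfp36 within the antisense gene Gm44710, while no annotated gene covers the others. The last 3 stretches are coding sequence of last exons and were chosen to show 3 states, a mixed one (Zfp575), a nearly full one (Zfp553) and a mostly empty one (Zfp771, with 3 CpGs called and 1 at 61.3% in MEF-1).

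Zfp575, chr7:24585629-24585928, minus strand: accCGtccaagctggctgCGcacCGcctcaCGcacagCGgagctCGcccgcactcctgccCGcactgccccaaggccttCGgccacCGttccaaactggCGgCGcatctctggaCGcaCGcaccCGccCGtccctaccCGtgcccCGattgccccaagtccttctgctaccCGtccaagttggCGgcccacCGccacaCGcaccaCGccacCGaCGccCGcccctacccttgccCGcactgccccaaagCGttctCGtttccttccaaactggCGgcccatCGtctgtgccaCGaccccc

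Zfp553, chr7:127236577-127236876, plus strand: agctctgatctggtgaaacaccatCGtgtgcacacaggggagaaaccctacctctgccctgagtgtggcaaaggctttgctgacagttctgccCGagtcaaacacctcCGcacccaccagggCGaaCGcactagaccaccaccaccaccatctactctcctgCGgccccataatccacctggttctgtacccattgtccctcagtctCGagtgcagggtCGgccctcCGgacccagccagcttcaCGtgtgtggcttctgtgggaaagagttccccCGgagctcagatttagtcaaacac

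Zfp771, chr7:127253828-127254127, plus strand: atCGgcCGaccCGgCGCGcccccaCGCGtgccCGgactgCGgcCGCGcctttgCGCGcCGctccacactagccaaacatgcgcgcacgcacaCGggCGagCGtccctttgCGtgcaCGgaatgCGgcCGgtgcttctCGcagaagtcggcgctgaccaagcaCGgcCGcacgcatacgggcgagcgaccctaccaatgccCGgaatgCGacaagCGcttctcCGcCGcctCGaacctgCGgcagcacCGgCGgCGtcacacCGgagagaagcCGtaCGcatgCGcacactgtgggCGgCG

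The 5 upstream stretches hold 4 to 7 CpGs each, whereas the coding stretches of Zfp575 and Zfp771 hold 32 and 49 CpGs in 300 bp. A dense run of CpGs in an array of fingers was therefore found at a level of 62.5% to 79.4% over the last exon of Zfp575 and of 2.5% to 5.5% over that of Zfp771.

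The first question was how methylation is laid out along these genes. The promoters were mostly low and the last exons mostly high. The median promoter level over the 128 genes was 5.9% in the MEF-1 and 6.0% in the MEF-2 clonal lines, and 66 promoters were under 10% in both families. Only 10 promoters were over 50% in both, those of Zfp934, Zfp458, Zfp748, Zfp598, Zfp414, Zfp524, Zfp180, Zfp626, Zfp14 and Zfp977, each with 3 to 7 measured CpGs except Zfp977 with 11. Among all other protein-coding genes the median was 10.4% and 9.7%, and among the Zfp genes of other chromosomes 16.3% and 13.9%. The share of promoters at 10% or more in either family was 48.4% of the 128, 55.7% of the other protein-coding genes and 64.9% of the other Zfp promoters. No test was made of these shares, since the genes were chosen as a list.

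By distance, the lowest levels lay at the gene start itself. In the 250 bp before the start the CpGs of the Zfp genes averaged 5.6% in MEF-1 and 5.8% in MEF-2, and in the 250 bp after it 4.0% in both. From 1000 to 750 bp upstream they averaged 37.8% and 30.5%. Within the gene they averaged 31.5% and 26.4% at 750 to 1000 bp and 59.4% and 61.8% at 1500 to 2000 bp. The other protein-coding genes had 17.9% and 17.1% at 750 to 1000 bp and 44.6% and 43.6% at 1500 to 2000 bp, so the means of the Zfp genes were the higher there. The bins hold different genes, with 117 Zfp genes at 0 to 250 bp, 49 at 750 to 1000 bp and 31 at 1500 to 2000 bp. Whether the low stretch is shorter within the same genes was not tested. The first exons, of which 98 were measured, had medians of 1.7% and 1.3%, and 93 of them (94.9%) were under 10% in both families. First exons of the other protein-coding genes had close medians, 2.0% and 1.6%, with 75.3% under 10% in both. Those of the Zfp genes of other chromosomes had 1.8% and 1.6%, with 81.0%. First introns had medians of 8.6% and 7.5% over 125 genes, against 27.3% and 25.5% in the other genes.

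**Figure D1:**
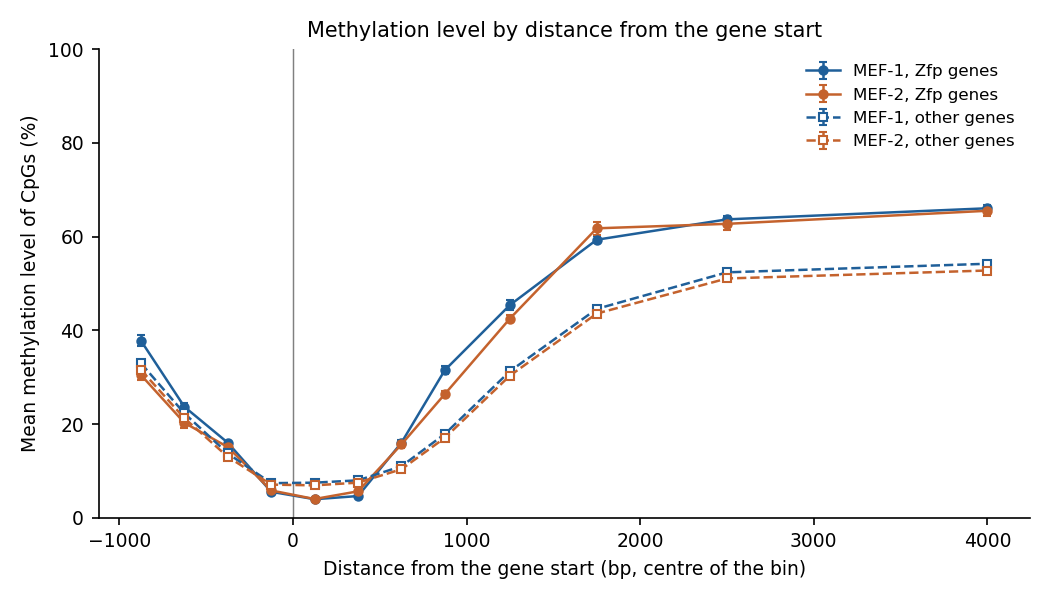
Mean methylation level of CpGs (percent, vertical axis) against the distance from the gene start (bp, horizontal axis) for the 161 Zfp genes (filled circles, solid lines) and all other protein-coding genes (open squares, dashed lines), in MEF-1 (blue) and MEF-2 (orange), with bars for the SD of 7 clonal lines. The Zfp genes are lower than the other genes from 250 bp before to 500 bp after the start and higher from 500 bp onwards. Each bin holds the genes with CpGs in it, which are 29 to 122 of the Zfp genes.

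Promoters of few and of many CpGs were set side by side. The 300 bp around the start were given by RefSeq (GRCm38) for 131 of the Zfp genes, with a median of 12 CpGs and a GC content of 54%, against 16 CpGs and 58% over 12558 protein-coding genes. In the class with under 10 CpGs, 33 of 43 Zfp promoters were measured, with medians of 6.7% (MEF-1) and 6.2% (MEF-2). All protein-coding genes of that class had medians of 37.6% and 34.6% over 949 measured promoters of 4467. The measured part was thus smaller there, and CpG numbers within the class were not matched. A level of 10% or more in either family was seen in 54.5% of these Zfp promoters, against 41.8% of those with 10 to 19 CpGs and 43.5% of those with 20 or more. Over all protein-coding genes these shares were 81.1%, 56.6% and 47.3%. With 20 CpGs or more the Zfp promoters had medians of 5.9% and 5.9%, and all genes 6.7% and 6.3%.

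The 20 last exons had medians of 93.5% (MEF-1) and 95.0% (MEF-2). In both families 10 of them (50.0%) were at 90% or more and 17 were over 50%. Last exons of the other genes had medians of 76.7% and 75.4%, with 21.9% at 90% or more in both families. The 38 measured last exons of Zfp genes on other chromosomes had medians of 93.7% and 92.8%, with 55.3% at 90% or more in both. The 3 that were not over 50% in both families were those of Zfp773, Zfp36 and Zfp771. The last exon of Zfp771 (chr7:127253805-127254803) had 62 CpGs and a level of 5.5% ± 0.9 over the MEF-1 lines and of 2.5% ± 0.5 over the MEF-2 lines (SD, n = 7 each). It was picked out after its values were seen.

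In the 14 genes with both regions, the last exon was compared with the promoter within each line. A quasi-binomial logistic model with line as a block called all 14 at an adjusted p under 0.05. In 13 of them the last exon was the higher, and in Zfp36 the promoter was. Over the 1909 protein-coding genes so tested, 93.1% were called in either direction, 82.7% with the last exon higher and 10.4% with the promoter higher, so a call in itself was common. The size was the larger difference, with a median of 83.7 points in the 14 genes and 55.6 in the other genes, and 75.4 points in the 25 Zfp genes of other chromosomes.

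The widest gaps were in Zfp324 (chr7:12965838-12974236) and Zfp553 (chr7:127233061-127238179). The promoter of Zfp324 ranged from 0 to 3.00% over the MEF-1 clonal lines with a median of 0.855%, and from 0 to 1.69% in MEF-2. Its last exon, with 34 of 35 CpGs in coding sequence, ranged from 97.6 to 98.9% in MEF-1 and from 93.7 to 97.9% in MEF-2. No promoter value came near a last exon value in any line, and the last exon exceeded the promoter by 97.3 ± 1.6 points in MEF-1 and by 95.1 ± 1.9 points in MEF-2 (SD over the 7 lines, adjusted p = 5.1e-17 by the quasi-binomial model). Zfp553 was alike, with a gap of 97.7 points in MEF-1 and 94.5 in MEF-2 (adjusted p = 5.0e-21 by the same model). In the stretch of Zfp553 printed above, 10 of the 11 CpGs were at 95.7% or more in both families.

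Zfp526 and Zfp975 completed the 4 widest gaps. The gap of Zfp526 was 92.0 points in MEF-1 and 94.3 in MEF-2, that of Zfp975 was 87.9 and 95.2. The 6 CpGs of the last exon of Zfp975 lie in the 3′ UTR, as do all measured CpGs of the last exons of Zfp74, Zfp619 and Zfp773 and 13 of the 14 of Zfp568, so that the array of fingers itself was not read there.

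The smallest gaps were in Zfp36, Zfp524, Zfp773 and Zfp13. In Zfp524 (chr7:5014415-5018488) both regions were methylated, the promoter at 69.7 to 83.2% and the last exon at 95.8 to 99.3% over all 14 clonal lines, which left gaps of 21.1 points in MEF-1 and 24.4 in MEF-2. In Zfp773 (chr7:7127073-7136755) the promoter was low at 3.6% and 3.4% and the last exon intermediate. In Zfp13 (chr17:23575844-23599487) it was the promoter that was intermediate, at 37.0% and 53.0%, beneath a last exon at 98.8% and 96.4%. That promoter level rests on 4 CpGs with 44 to 136 reads in all per library. Of these CpGs 1 was called higher in MEF-1 and 1 higher in MEF-2.

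Zfp36 (chr7:28376784-28380253) went the other way. The MEF-1 lines had 25.03% ± 5.5 in the promoter and 23.1% ± 4.9 in the last exon (SD, n = 7), and the MEF-2 lines 45.1% ± 5.8 and 26.5% ± 5.5 (SD, n = 7). That left gaps of −1.94 ± 6.4 points for MEF-1 and −18.7 ± 5.7 points for MEF-2 (adjusted p = 0.0016 by the quasi-binomial model over both families). The 9 coding CpGs of this exon averaged 14.0% and 15.2%, the 3 CpGs of its 3′ UTR 50.2% and 56.6%. In MEF-1 alone the gap did not pass the test.

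The gap itself differed between the families in 7 of the 14 genes (50.0%, against 43.4% of all genes tested). This was tested by the interaction term of the model, which is on the scale of log odds. The gaps are given in points, and their difference in points was not tested. It was larger in MEF-1 for Zfp768, with 92.1 against 71.2 points (adjusted p = 1.7e-04 by the interaction term of the model), and for Zfp13. In Zfp36, where the gap is negative, it was nearer to 0 in MEF-1 than in MEF-2. It was larger in MEF-2 for Zfp74, with 46.5 points in MEF-1 and 69.4 in MEF-2 (adjusted p = 1.4e-04 by the same term), and for Zfp619, Zfp787 and Zfp975. In Zfp768 and Zfp74 the promoters were the regions that differed most between the families. All 7 promoter CpGs measured in Zfp768 lie 991 to 755 bp before its start. The difference of the gap between the families was not recomputed under other settings.

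**Figure D2:**
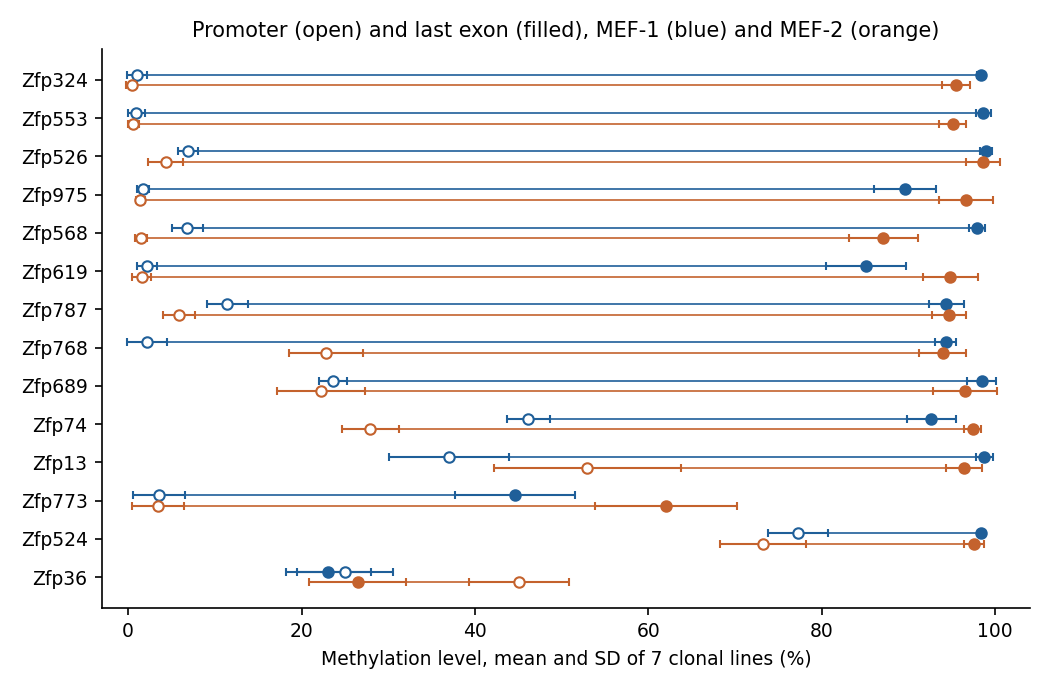
Methylation level (percent, horizontal axis) of the promoter (open circles) and the last exon (filled circles) of the 14 genes with both regions, ordered by the gap, in MEF-1 (blue) and MEF-2 (orange), as the mean of 7 clonal lines with bars for the SD. The last exon lies to the right of the promoter in every gene except Zfp36, at the bottom.

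The second question was how far the families differ at these genes. Of the 128 promoters, 49 (38.3%) differed between the clonal lines of the families at an adjusted p under 0.05 in the quasi-binomial model, 28 being higher in MEF-1 and 21 in MEF-2. Among all 10155 promoters tested 42.5% were called, 25.4% higher in MEF-1 and 17.1% higher in MEF-2, so the Zfp promoters did not stand out from that background. A difference of 10 points or more was called in 18 Zfp promoters (14.1%, against 19.6% of all). The 7 MEF-1 lines did not overlap with the 7 MEF-2 lines in 21 promoters (16.4%, against 19.3% of all). The median absolute difference was 2.1 points for the Zfp promoters and 3.0 for the other genes.

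Averaged over the 128 promoters, the MEF-1 clonal lines had 16.09% ± 0.36 and the MEF-2 clonal lines 15.92% ± 0.52 (SD, n = 7 each), with the parental lines at 15.96% and 16.07%. The mean over the genes thus differed between the families by less than the SD of the lines, while single genes differed in both directions.

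**Figure D3:**
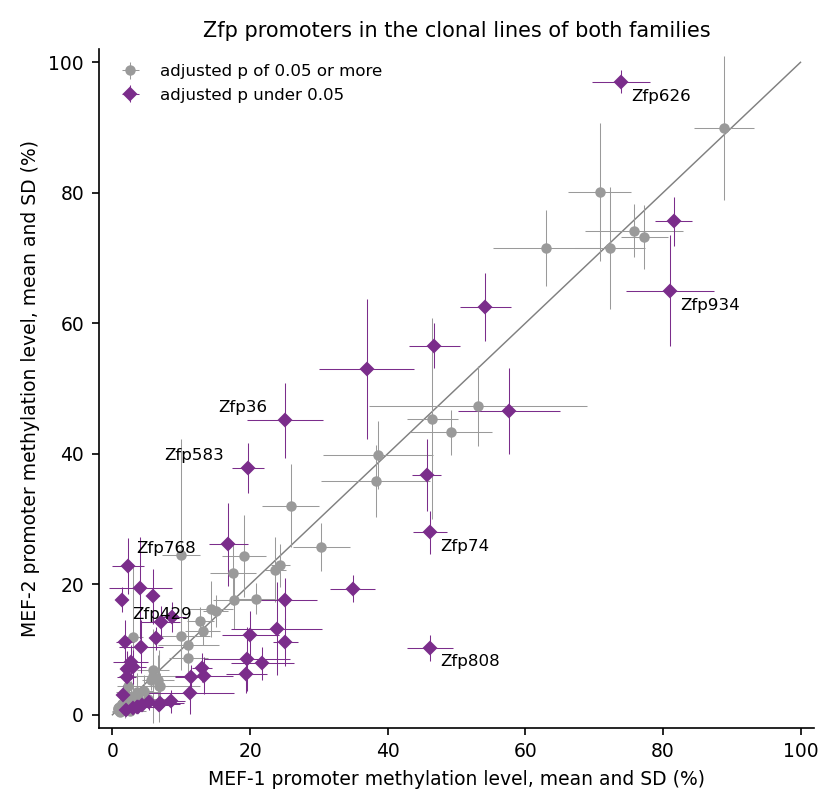
Promoter methylation level of the 128 measured Zfp genes in the MEF-2 clonal lines (percent, vertical axis) against that in the MEF-1 clonal lines (percent, horizontal axis), as means with bars for the SD of 7 lines. Purple diamonds are the 49 promoters with an adjusted p under 0.05, grey circles the rest, and the labelled genes are the 8 with the largest called differences, of which Zfp808, at 46.1% and 10.3%, lies farthest from the grey line of equal levels.

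The largest difference was at Zfp808 (chr13:62129886-62236144), a gene of chromosome 13. Its 11 promoter CpGs were at 42.6% in the lowest, 45.8% in the median and 51.6% in the highest MEF-1 clonal line, and at 8.31%, 10.1% and 13.3% in the corresponding MEF-2 lines. No lines overlapped, and the parental libraries had 49.0% (95% Wilson interval 46.7 to 51.3) and 12.0% (10.7 to 13.5). The family difference was 35.8 points (46.1% ± 3.3 against 10.3% ± 2.0, SD, n = 7 each, adjusted p = 1.8e-08 by the quasi-binomial model). Of the 11 CpGs 6 were called, all higher in MEF-1, and the 5 printed above were at 97.2% or more in that family. In MEF-2 those 443 and 428 bp before the start were at 48.1% and 49.4%, and those at 270, 254 and 248 bp at 6.7%, 4.8% and 2.6%. The sixth, 87 bp before the start, was at 21.5% ± 16.3 over the MEF-1 lines and 2.2% ± 0.5 over the MEF-2 lines (SD, n = 7 each). The 2 CpGs nearest to the start were under 2% in both families.

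At Zfp626 (chr7:27807196-27822916) the promoter was methylated in both families. The 7 MEF-1 lines ranged from 68.3 to 82.1% with a median of 73.3%, and the 7 MEF-2 lines from 94.4 to 100% with a median of 97.3%. The lines did not overlap and the difference was −23.1 points (adjusted p = 1.7e-06 by the quasi-binomial model). A single CpG of the 4 in the printed stretch differed, 91 bp before the start, with 48.6% ± 5.1 for MEF-1 and 96.7% ± 2.5 for MEF-2 (SD, n = 7 each), and the other 3 were at 95.7% or more in both. Reads are pooled, so CpGs with more reads weigh more. By the plain mean of these 4 CpG levels the families differ by less than by the pooled level.

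The promoters of Zfp768, Zfp583 and Zfp429 were also higher in MEF-2. That of Zfp768 (chr7:127342795-127345589) ranged from 0 to 6.90% with a median of 1.23% in MEF-1 and from 18.3 to 30.7% with a median of 22.5% in MEF-2, a difference of −20.6 points (adjusted p = 7.6e-06). The CpG at the far end of the window, 991 bp upstream, was at 3.2% in MEF-1 and 97.3% in MEF-2, and its neighbour at 987 bp at 6.4% and 60.4%. In Zfp583 (chr7:6315660-6331285) the MEF-1 lines ranged from 16.8 to 22.4% and the MEF-2 lines from 32.4 to 42.8%, without overlap (−18.1 points, adjusted p = 6.7e-06). In Zfp429 (chr13:67387905-67399819) the ranges were 0.556 to 2.22% and 15.2 to 20.2%, also without overlap (−16.3 points, adjusted p = 6.2e-07). The CpGs 185 and 167 bp upstream of Zfp429 were at 56.5% and 51.6% in MEF-2 and at 3.8% and 1.0% in MEF-1, while the other 4 were under 4% in both families. All p-values of this paragraph are from the quasi-binomial model. With the 500 bp on either side of the start taken as the promoter, the differences of Zfp768 and Zfp583 were 0.167 and 1.60 points, and with 20 reads required at every CpG that of Zfp429 was −1.59 points, none of which passed.

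Zfp36, described above for its gap, ranged over its promoter from 17.5 to 34.9% with a median of 25.8% in MEF-1 and from 35.0 to 52.3% with a median of 46.5% in MEF-2. The highest MEF-1 line and the lowest MEF-2 line all but met, and the difference was −20.1 points (adjusted p = 2.2e-04 by the quasi-binomial model). It lay in the printed stretch, where the CpGs at 429, 300 and 239 bp had 14.5%, 44.0% and 37.0% in MEF-1 and 84.3%, 98.5% and 87.0% in MEF-2. The 4 CpGs from 765 to 750 bp upstream were under 4% in both families.

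Zfp74 and Zfp934 were higher in MEF-1. The promoter of Zfp74 (chr7:29930815-29954089) ranged from 43.2 to 49.2% in MEF-1 and from 23.7 to 33.5% in MEF-2, without overlap (18.2 points, adjusted p = 4.1e-06 by the quasi-binomial model). Its CpG 247 bp upstream was at 94.6% in MEF-1 and 3.9% in MEF-2, between 8 low CpGs on the side of the start and CpGs at 441 and 461 bp that were above 90% in both. The promoter of Zfp934 (chr13:62479827-62571199) had 4 CpGs, with a range of 69.8 to 91.3% in MEF-1 and 54.2 to 78.2% in MEF-2. These ranges overlapped, though the test was passed (16.1 points, adjusted p = 0.0051 by the quasi-binomial model). The gene start of Zfp934 is that of a non-coding transcript, and its chosen coding transcript starts at the same base as Zfp935. Before that start the MEF-1 lines averaged 2.2% and the MEF-2 lines 7.0%, a difference of −4.79 points in the other direction.

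**Figure D4:**
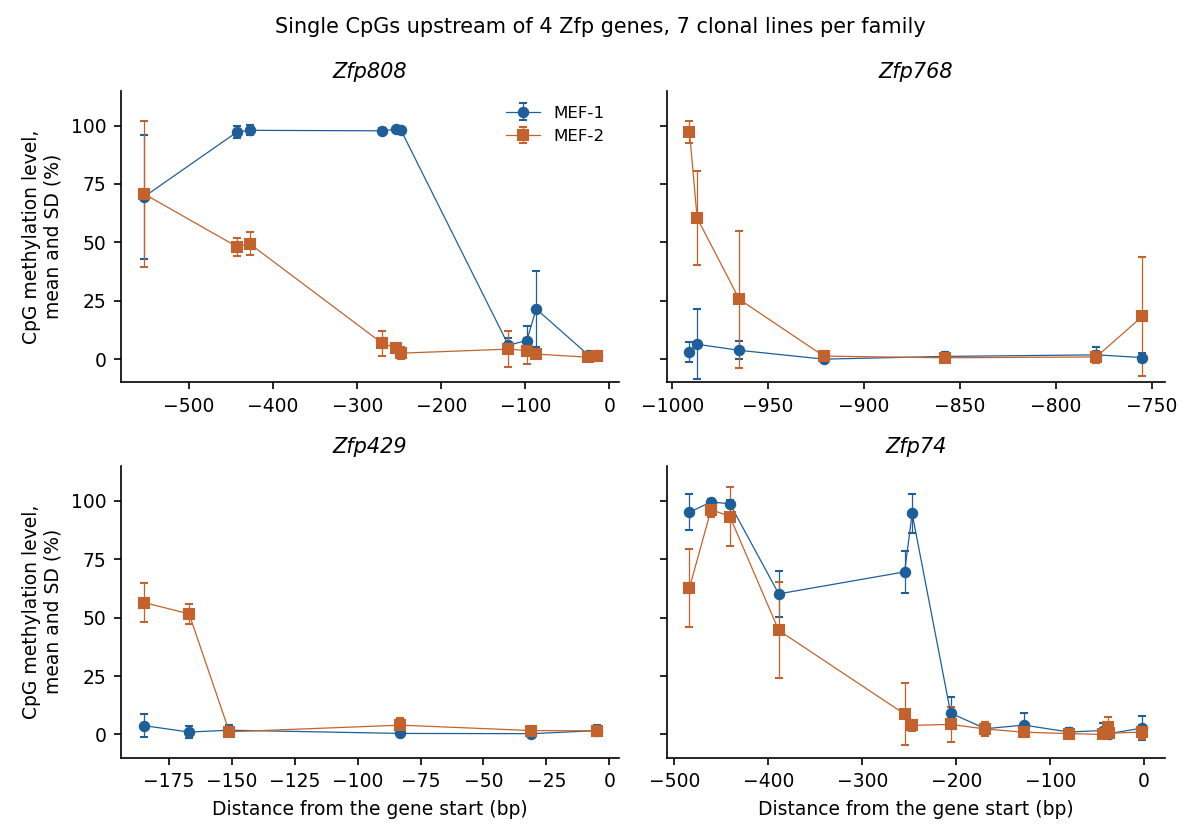
Methylation level of single CpGs (percent, vertical axis) against their distance from the gene start (bp, horizontal axis) in the promoters of Zfp808, Zfp768, Zfp429 and Zfp74, in MEF-1 (blue circles) and MEF-2 (orange squares), as the mean of 7 clonal lines with bars for the SD. The families separate at some CpGs, such as 3 at 270 to 248 bp before Zfp808, and lie close together at others, such as the 2 nearest to its start.

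The 49 called promoters had 652 CpGs, of which 112 (17.2%) differed between the families when each CpG was tested alone. In 20 promoters exactly 1 CpG was called, in 28 there were at least 2, and in 1 none, and in 2 promoters most of the CpGs were called. In 9 promoters CpGs were called in both directions. These counts were not made for the called promoters of other genes, so whether they are particular to the Zfp genes was not tested. Over the whole genes with the 1000 bp before them, 807 of 6112 CpGs (13.2%) were called, 449 higher in MEF-1 and 358 in MEF-2, against 20.2% of all CpGs of the table and 17.6% of those in the same windows of all protein-coding genes. In promoters alone 11.1% of the Zfp CpGs were called, against 11.6% over all genes.

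The called CpGs were also sorted by the levels of both families. Of the 807, 299 (37.1%) had family means that fell in 2 different classes among under 10%, 40 to 60%, and 90% or more. The share over all called CpGs of the table was 32.8%. With the share among all called CpGs given second, in 78 (9.67%, against 5.80%) the step was from under 10% in MEF-1 to 40 to 60% in MEF-2 and in 66 (8.18%, against 6.94%) the reverse. In 67 (8.30%, against 7.85%) it was from 40 to 60% in MEF-1 to 90% or more in MEF-2 and in 65 (8.06%, against 10.2%) the reverse. A full step between under 10% and 90% or more was seen in 16 CpGs higher in MEF-1 (1.98%, against 1.26%) and 7 higher in MEF-2 (0.867%, against 0.696%). The classes were chosen for description and were not tested.

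Of the genes chosen for their known roles, Zfp568 (chr7:29983955-30028282) was higher in MEF-1 in both regions. Its promoter, with 36 CpGs, was low in both families, from 4.83 to 9.22% in MEF-1 and from 0.803 to 2.65% in MEF-2, without overlap (5.33 points, adjusted p = 4.5e-05 by the quasi-binomial model). Its CpGs 860, 812 and 790 bp upstream had 68.8%, 71.7% and 59.2% in MEF-1 and 20.5%, 1.3% and 4.6% in MEF-2, and those nearer than 786 bp were under 5% in both. Within 500 bp on either side of the start the difference was 0.471 points and did not pass. Zfp819 (chr7:43607169-43618285), known from pluripotent cells, was intermediate with 46.8% ± 3.7 for MEF-1 and 56.6% ± 3.4 for MEF-2 (SD, n = 7 each) over 21 CpGs (adjusted p = 9.1e-04 by the quasi-binomial model). Its CpGs did not share 1 direction, since of 8 called ones 5 were higher in MEF-2 but 3 higher in MEF-1. The largest difference at a single CpG, 49.8 points, was towards MEF-1 and thus opposite to that of the whole promoter. Zfp296 (chr7:19577287-19580656), a gene of pluripotent cells, had 17.7% and 17.5% and did not pass (adjusted p = 0.74 by the same model). Zfp57 and Zfp536 had too few promoter CpGs, and over the whole window they were at 42.2% and 45.3% over 35 CpGs and at 53.1% and 44.8% over 275 CpGs.

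In the last exons the families differed in 11 of 20 (55.0%, against 50.4% of all 2984 tested), 5 higher in MEF-1 and 6 in MEF-2. A difference of 10 points or more was called in 3 (15.0%, against 29.2% of all). The mean over the 20 last exons was 81.1% ± 0.40 for the MEF-1 and 83.1% ± 0.98 for the MEF-2 clonal lines (SD, n = 7 each), with the parental lines at 80.6% and 83.03%, and as a score over chosen genes it was not tested. The lines did not overlap in Zfp575, Zfp568 and Zfp771 (15.0%, against 22.6% of all).

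The last exon of Zfp575 (chr7:24583838-24587641) was measured at 37 coding CpGs. The MEF-1 lines were between 60.02 and 63.8% with a median of 63.0% and the MEF-2 lines were between 75.0 and 84.9% with a median of 79.5%, without overlap. The parental libraries had 61.6% (95% Wilson interval 59.2 to 64.0) and 76.6% (74.5 to 78.6). The difference was −16.9 points (62.5% ± 1.4 against 79.4% ± 3.2, SD, n = 7 each, adjusted p = 3.9e-06 by the quasi-binomial model). It was spread over many CpGs, with 21 of 37 called and 18 of these higher in MEF-2. With 20 reads required it was −5.49 points and did not pass.

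Zfp773 had the largest difference, −17.4 points, over 4 CpGs of its 3′ UTR. The MEF-1 lines ranged from 36.1 to 57.4% and the MEF-2 lines from 49.0 to 72.0%, so that they overlapped (adjusted p = 0.0059 by the quasi-binomial model). It did not pass (−13.5 points) without the lines whose coverage of chromosome 7 was shifted. In Zfp568 the MEF-1 lines were at 96.3 to 98.8% and the MEF-2 lines at 81.1 to 91.6% (10.8 points, adjusted p = 4.4e-05 by the same model). The CpG 39829 bp after its start averaged 98.6% ± 2.7 over the MEF-1 lines and 18.2% ± 22.2 over the MEF-2 lines (SD, n = 7 each), ranging from 0 to 51.6% over the MEF-2 lines.

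The other 5 named last exons differed by less. Zfp619 had 85.1% in MEF-1 and 94.8% in MEF-2, Zfp574 88.5% and 95.6%, Zfp975 89.6% and 96.7%, and Zfp74 92.7% and 97.4%. Zfp553 was higher in MEF-1, with 98.6% and 95.1%. The adjusted p-values were 0.0024, 2.1e-04, 0.011, 0.0020 and 0.0012 in this order by the quasi-binomial model, and the lines overlapped in all 5. Zfp975 did not pass without MEF-1 clonal lines 1, 4 and 5 (−4.95 points) or without the lines of shifted coverage (−7.23 points). In Zfp74 and Zfp553 a single CpG stood out, at 34.5% in MEF-1 and 96.6% in MEF-2 for Zfp74, and at 99.1% and 33.1% for Zfp553.

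The third question was the spread between clonal lines of a family. The 7 lines of a family lay close together at most promoters, with a median SD of 1.9 points in MEF-1 and 2.3 in MEF-2, against 2.4 and 2.8 in the other genes. The spread went with the level. Zfp promoters under 10% had median SDs of 1.17 and 1.10 points, those from 10 to 50% 3.30 and 4.13, and those at 50% or more 4.81 and 5.52. Other genes had 1.09 and 1.15, 4.08 and 4.82, and 4.57 and 5.36 points in these classes. Single CpGs varied beyond read sampling between the MEF-1 lines at 1097 of the 6112 CpGs (17.9%) and between the MEF-2 lines at 1476 (24.1%), by a chi-square test per CpG with an adjusted p under 0.05. The test takes each read as a separate molecule, which PCR copies are not. Without MEF-1 clonal lines 1, 4 and 5 the MEF-1 count was 652 (10.7%, against 17.4% of all CpGs), and without the lines of shifted coverage 661 (10.8%, against 24.9%). The latter were left out by chromosome. On chromosome 7 these were MEF-1 clonal lines 1, 3, 6 and 7, and on chromosomes 13 and 17 line 1 alone. The shares of 10.8% and 24.9% thus rest on unlike numbers of lines. With all lines, the shares over the whole table were 27.6% and 36.8%, and in the same windows of all protein-coding genes 24.1% and 32.4%. In promoters alone they were 15.0% and 20.4% for the Zfp genes and 16.6% and 22.1% for all genes.

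The promoters with the widest spread were those of Zfp983 and Zfp27 in MEF-2 and Zfp710 in MEF-1, followed by Zfp941 in MEF-2. Zfp983 (chr17:21650624-21664966) was at 8.00 to 15.7% over the MEF-1 lines and at 9.17 to 55.1% over the MEF-2 lines, with a median of 19.5% there. The highest MEF-2 line was thus far above its parental library, which had 18.6% (95% Wilson interval 14.5 to 23.6). Its family difference did not pass the test (10.0% ± 2.7 against 24.5% ± 17.6, SD, n = 7 each, adjusted p = 0.072 by the quasi-binomial model), though it did without MEF-2 clonal line 1, 5 or 6. The CpG 14 bp before its start ranged from 0 to 80.0% over the MEF-2 lines and from 0 to 3.03% over the MEF-1 lines.

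Zfp710 (chr7:80024814-80094173) was at 25.2% in the lowest MEF-1 line and 72.0% in the highest, with a median of 58.1%, and at 39.6 to 55.7% in MEF-2. Zfp27 (chr7:29893333-29906572) was at 39.8 to 50.4% in MEF-1 and 31.4 to 78.1% in MEF-2, and its CpG 308 bp upstream was at 0 in the lowest and 96.6% in the highest MEF-2 line. Its promoter overlaps that of Zfp383, so that both share CpGs. Zfp941 (chr7:140807449-140822178) was at 0.769 to 4.48% in MEF-1 and 0 to 28.3% in MEF-2 (adjusted p = 0.083 for the families by the quasi-binomial model, passed without MEF-2 clonal line 2 or 4), over 4 CpGs within 44 bp of its start.

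**Figure D5:**
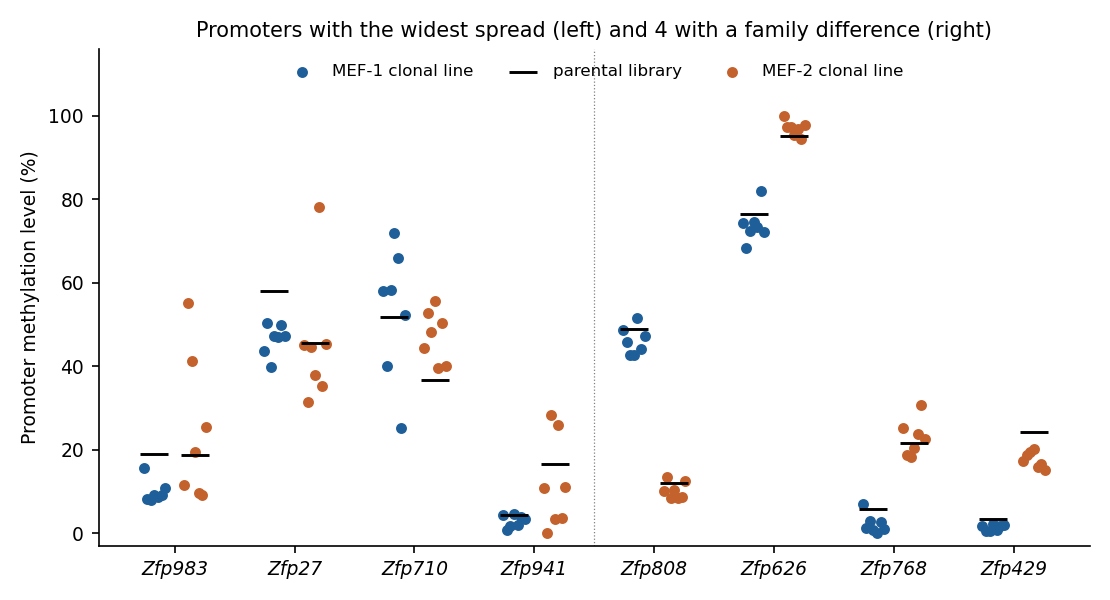
Promoter methylation level (percent, vertical axis) of 8 Zfp genes in each MEF-1 (blue) and MEF-2 (orange) clonal line, 1 point per line, with the parental library as a black bar. On the left are the 4 genes with the widest spread between the lines of a family, such as Zfp983 with 9.17 to 55.1% in MEF-2, and on the right 4 genes whose families do not overlap.

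Last exons with the widest spread were those of Zfp773, Zfp30, Zfp36 and Zfp61. Zfp30 (chr7:29783998-29794702) ranged from 70.8 to 85.2% in MEF-1 and from 60.1 to 81.3% in MEF-2, and Zfp61 (chr7:24291039-24301232) from 73.5 to 81.4% and from 74.3 to 86.7%. All 4 lay below 90% in every clonal line.

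A line was said to depart where its promoter level was 10 points or more from the median of the other 6 lines of its family. There were 67 such departures, 40 higher and 27 lower, at 19 promoters in MEF-1 and 22 in MEF-2, of which 12 were in both. At 99 of the 128 promoters no line departed in either family. Each MEF-1 line departed at 3 to 6 of the Zfp promoters and each MEF-2 line at 2 to 9, so no line carried most of the departures. These were 2.34 to 4.69% of the 128 promoters per MEF-1 line and 1.56 to 7.03% per MEF-2 line, against 3.87 to 5.79% and 5.47 to 7.75% of the promoters of other genes. The parental library was within 10 points of the clonal mean at 125 promoters in MEF-1 and 127 in MEF-2, and at 18 and 20 of the 20 last exons.

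By chromosome, promoters were called between the families in 27 of 71 on chromosome 7 (38.0%), 10 of 23 on chromosome 13 (43.5%) and 12 of 34 on chromosome 17 (35.3%). The median levels were 6.9% in MEF-1 and 5.9% in MEF-2 on chromosome 7, 3.1% and 7.4% on chromosome 13, and 4.2% and 5.1% on chromosome 17. Of the clustered genes 41 of 103 promoters were called (39.8%) and of the single genes 8 of 25 (32.0%). These shares were not tested against each other, and the share over all promoters was 42.5%.

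Neighbouring genes did not all differ in the same direction. The largest cluster of chromosome 7, of 15 genes from Zfp84 to Zfp146, had 12 measured promoters, of which 6 were called as higher in MEF-1 and 1 as higher in MEF-2. The largest of chromosome 13, of 14 genes from Zfp712 to Zfp748, also had 12, of which 1 was called as higher in MEF-1 and 4 as higher in MEF-2. In the largest cluster of chromosome 17, of 9 genes from Zfp677 to Zfp229, 8 promoters were measured and 1 was called in each direction. Over all promoters 25.4% were called as higher in MEF-1 and 17.1% as higher in MEF-2.

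Of 16 further genes of this repression pathway, 11 promoters were measured and 3 differed between the families (27.3%, against 42.5% of all promoters). Those of Cbx3, which encodes HP1 gamma, and Smarcad1, a chromatin remodeller, were higher in MEF-1, with 1.7% against 1.0% and 11.1% against 6.9% (adjusted p = 0.0047 and 0.032 by the quasi-binomial model). That of Chd4, the remodeller of the NuRD complex, was higher in MEF-2, with 18.2% ± 6.2 for the MEF-1 lines against 48.1% ± 4.7 for the MEF-2 lines (SD, n = 7 each, adjusted p = 1.7e-05 by the same model). Setdb1 was low in both families with 1.6% and 1.2%, and Cbx1, which encodes HP1 beta, was at 75.4% and 73.1%. The promoter of Trim28 had no CpG that met the requirement.

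The p-values measure the spread between clonal lines of 1 culture per family, and not that between embryos. Without MEF-1 clonal lines 1, 4 and 5, which were close to each other, 42 promoters and 9 last exons were called. Where lines with a shifted coverage of a chromosome were left out for the genes on it, 42 promoters and 8 last exons were called, and the part of copy number in the levels was not tested further.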

How the data were processed

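Libraries of the 16 samples (2 parental and 14 clonal lines) were made by tcBS-seq and processed by the authors, who per the methods trimmed reads with Trim Galore 0.6.0, aligned them to mm10 with Bismark and filtered on mapping quality and read-end bias. Whether PCR duplicates were removed is not stated. The deposited values are counts of methylated and unmethylated reads per CpG, without normalisation. The deposited series table holds 1203687 CpGs on 16 chromosomes, each read 10 times or more in every library, and its counts equalled those of the library files. Chromosomes 12, 18 and 19 and the sex chromosomes are not in it. Its 2 columns of coverage and percentage per sample follow from the counts and were not used, nor were the authors' scores per CpG. Of its 205821 CpGs on chromosomes 7, 13 and 17, 205802 lay at a CpG of the GRCm38 (mm10) reference.

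The genes, gene lists and tests were chosen with earlier results of these data known. Groups came from the labels. Counts of a region were summed per library, and regions with at least 3 CpGs were tested with a quasi-binomial logistic model of the 14 clonal lines (F-test with a dispersion of 1 or above), with p-values adjusted after Benjamini and Hochberg over all protein-coding genes. Single CpGs were adjusted over the whole table. The parental libraries, 1 per family, are given as values, and the 95% Wilson intervals cover counting error only. Named genes were the 8 largest called family differences of promoters and of last exons, the 4 largest and 4 smallest gaps, the 4 largest SDs of promoters and of last exons, and Zfp57, Zfp568, Zfp36, Zfp264, Zfp296, Zfp536 and Zfp819. Zfp264 is not a symbol of GENCODE M21. Alternatives changed the minimum of CpGs or reads, the promoter, the model (limma 3.58.1), a replicate block and the lines used. The models (Python 3.11.15, numpy 2.4.6, scipy 1.17.1, R 4.3.3) were tested on simulated data.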

Additional observations from a re-analysis of the deposited data

Results flagged for a closer look

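Of 74 groups of 7 clonal lines at the named regions, 6 had a line far from the others by Dixon's criterion (0.568 for 7 values). Chance alone marks about 1 in 20 of groups of normally distributed values not chosen for their spread. Levels near 0 or 100%, as in several of these groups, need not be so distributed, and the rate for them was not computed. Zfp983 and Zfp27 were named for a wide spread between lines, so the rate of 1 in 20 does not hold for them. The promoter of Zfp983 was at 15.7% in MEF-1 clonal line 1 and at 8.00 to 10.8% in the other 6 lines. The promoter of Zfp768 was at 6.90% in the same line and at 0 to 2.91% in the others. The promoter of Zfp773 was at 10.1% in MEF-2 clonal line 1 against 1.49 to 3.37%, and the last exon of Zfp975 at 89.7% in that line against 96.7 to 98.8%. The promoter of Zfp27 was at 78.1% in MEF-2 clonal line 5 against 31.4 to 45.3%. The last exon of Zfp526 was at 94.5% in MEF-2 clonal line 7 against 98.3 to 100%. MEF-1 clonal line 1 had the lowest number of calls of all libraries (59243669), with MEF-1 clonal line 7 next (60172481). The relative coverage of line 1 was also shifted on chromosome 7 (0.832), which holds Zfp768, and on chromosome 17 (0.840), which holds Zfp983. Whether depth or coverage bears on these values was not tested.

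The gap between last exon and promoter differed between the families in 3 of the 8 genes named for it, by the interaction term of the quasi-binomial model, against 43.4% of all genes tested. That term is on the scale of log odds, and the differences in points are given as values. The gap was 18.3 points larger in MEF-1 for Zfp13 (61.8 against 43.5 points, adjusted p = 0.023). The promoter of Zfp13 had 4 CpGs, of which 1 was called higher in MEF-1 and 1 higher in MEF-2. For Zfp36 the negative gap was 16.7 points closer to 0 in MEF-1 than in MEF-2 (−1.94 against −18.7 points, adjusted p = 0.0057). For Zfp975 the difference was −7.32 points (87.9 against 95.2 points, adjusted p = 0.025).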

How the results depend on the processing

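Of 588 recomputed family differences of 26 named regions, 574 kept their side of the threshold, 6 no longer passed, 5 newly passed and 3 reversed. A reversal was counted only where the difference passed before or after the change. Differences that changed sign without passing in either, as at Zfp296, are among the 574. The reversed ones were Zfp934 with −4.79 points before the start of the chosen transcript, and Zfp768 with 0.167 and Zfp583 with 1.60 points within 500 bp of the start. Of 190 recomputed gaps, 189 kept their direction and side of the threshold, and that of Zfp36 in MEF-1 alone (−1.94 points) did not pass. Called promoters were 31 of 74 (41.9%) with 10 CpGs required and 18 of 128 for differences of 10 points or more. Called last exons were 7 of 14 with 10 CpGs, 4 of 9 with 20 reads and 3 of 20 for 10 points or more. The last exon was called higher than the promoter in 3 of 4 genes with 10 CpGs, 4 of 4 with 20 reads and 8 of 9 for its coding part. With 20 reads, of 2956 CpGs left 459 (15.5%, all CpGs 23.2%) differed between the families, and 687 (23.2%, all 33.4%) varied between MEF-1 and 860 (29.1%, all 42.1%) between MEF-2 lines. Variable CpGs in MEF-1 were 652 (10.7%, all 17.4%) without lines 1, 4 and 5 and 661 (10.8%, all 24.9%) without the lines of shifted coverage on each chromosome, with fewer lines tested. The shares of 10.8% and 24.9% rest on unlike numbers of lines, since chromosome 7 lost MEF-1 clonal lines 1, 3, 6 and 7. As a mean over CpGs, promoters averaged 15.7% (MEF-1) and 15.4% (MEF-2), and in genes with both regions 17.6% and 18.8%. Last exons averaged 80.7% (MEF-1) as a mean over CpGs, and 86.7% (MEF-1) and 88.1% (MEF-2) in genes with both regions. Leaving out each clonal line gave 45 to 51 promoters, 10 to 11 last exons and 13 genes with the last exon higher. With a replicate block 40 promoters (31.3%) and 11 last exons were called, and the lines share only a number, since deviations of same-numbered lines correlated at −0.004 to 0.004 and none correlated best with its own number. With limma 51 of 128 promoters and 11 of 20 last exons were called. Apart from those for differences of 10 points or more, given above, the shares of called regions over all genes were not recomputed. Whether these changes are particular to the Zfp genes was thus not tested. The causes of these changes were not tested, other than fewer CpGs, reads or lines. Of the last exon CpGs outside the table, 65.9% had a median of 0 reads over the libraries.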
